A study of Mus musculus with 3 samples.

Results

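The genes described here have a CpG-rich promoter that was closed in every library of natural killer cells. A promoter was taken as CpG-rich when the ratio of observed to expected CpG dinucleotides (CpG ratio) was above 0.6 in the window made of the 5' end of the gene and 500 bp each side. It was called closed when the authors' larger peak list had no peak within 500 bp of any annotated start site of the gene in any of the 3 libraries. Of 20807 autosomal protein-coding genes, 9819 had a CpG-rich promoter and 869 of these were closed throughout, which is 8.85% of the CpG-rich genes. These 869 genes are called members below. Because they were selected by the absence of peaks in these libraries, that absence is a description and was not tested. The 2 main comparison groups were the 8187 CpG-rich genes open in all 3 libraries and the 6840 CpG-poor genes closed in all 3, out of 10988 CpG-poor genes. A further 763 CpG-rich genes were open in 1 or 2 libraries only.

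The 3 libraries came from natural killer cells, the cytotoxic innate lymphocytes, prepared as primary cells from adult male mice of strain B6CASTF1/J aged 2 months. There was a single group, with no treatment and no second cell type, and the labels name no sorting gate. The labels give 1 donor for the 3 libraries but a biosample of its own to each. Every SD and p-value here therefore measures only the variation between these libraries, which may be technical. DNase-seq maps DNA that DNase I can cut, and a peak marks a stretch of accessible chromatin. A closed promoter in this sense is one for which no peak was listed, and the sequencing depth behind the lists is unknown.

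CpG islands are stretches of unmethylated, CpG-dense DNA that hold the start sites of most housekeeping genes and of many developmental regulators. At housekeeping genes they are kept nucleosome-depleted by broadly expressed transcription factors. At developmental regulators in tissues where the gene is silent they are commonly held by Polycomb group complexes, which mark the nucleosomes there. Promoters of a set of germ cell genes are also CpG-dense and are silenced in the soma by DNA methylation or by complexes that read an E-box or E2F site. None of these marks was measured here.

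The sequences of 8 promoters are printed so that closed and open CpG-rich DNA can be compared. Each run holds the 250 bases directly before the annotated 5' end, on the gene's strand, from GRCm38, with CpG dinucleotides in capitals. The first 6 belong to members, chosen as the member with the highest CpG ratio in each of 6 large gene classes, among those with no annotated exon in these bases. Barhl2 is a homeobox regulator of neural development (chr5:106458167-106458416, minus strand). Slc6a17 is a vesicular amino acid transporter of neurons (chr3:107518019-107518268, minus strand). Tcf15 is a basic helix-loop-helix (bHLH) regulator of somites (chr2:152143311-152143560, plus strand). Adamts2 is the protease that trims procollagens (chr11:50601834-50602083, plus strand). Fkbp6 is needed for meiosis in males (chr5:135350045-135350294, minus strand). Prdm16 is a zinc finger regulator of brown fat and blood stem cells (chr4:154636874-154637123, minus strand). The last 2 belong to open housekeeping genes with very high promoter signal: Mrpl17 of the mitochondrial ribosome (chr7:105811100-105811349, minus strand) and Rplp0 of the ribosomal stalk (chr5:115559217-115559466, plus strand).
Barhl2: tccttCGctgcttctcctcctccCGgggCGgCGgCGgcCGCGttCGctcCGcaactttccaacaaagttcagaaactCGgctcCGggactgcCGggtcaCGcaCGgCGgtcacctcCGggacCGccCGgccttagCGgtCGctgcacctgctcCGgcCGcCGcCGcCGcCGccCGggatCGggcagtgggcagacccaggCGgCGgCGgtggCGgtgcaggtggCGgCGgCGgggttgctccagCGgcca
Slc6a17: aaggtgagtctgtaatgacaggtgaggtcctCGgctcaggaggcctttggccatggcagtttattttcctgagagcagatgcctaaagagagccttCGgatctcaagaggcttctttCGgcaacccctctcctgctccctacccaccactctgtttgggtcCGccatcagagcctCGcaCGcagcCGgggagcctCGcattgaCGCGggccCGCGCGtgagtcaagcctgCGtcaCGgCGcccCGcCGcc
Tcf15: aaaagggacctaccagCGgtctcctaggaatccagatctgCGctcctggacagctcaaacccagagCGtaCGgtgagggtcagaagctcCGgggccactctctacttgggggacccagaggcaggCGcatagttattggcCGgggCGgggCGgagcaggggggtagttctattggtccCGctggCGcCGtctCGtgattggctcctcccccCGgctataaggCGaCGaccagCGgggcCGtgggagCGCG
Adamts2: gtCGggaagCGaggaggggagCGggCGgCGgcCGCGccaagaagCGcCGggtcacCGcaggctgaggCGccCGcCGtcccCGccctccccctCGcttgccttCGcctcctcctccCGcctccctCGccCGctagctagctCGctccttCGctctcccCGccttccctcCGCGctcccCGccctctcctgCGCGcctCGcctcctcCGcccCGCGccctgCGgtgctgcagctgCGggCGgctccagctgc
Fkbp6: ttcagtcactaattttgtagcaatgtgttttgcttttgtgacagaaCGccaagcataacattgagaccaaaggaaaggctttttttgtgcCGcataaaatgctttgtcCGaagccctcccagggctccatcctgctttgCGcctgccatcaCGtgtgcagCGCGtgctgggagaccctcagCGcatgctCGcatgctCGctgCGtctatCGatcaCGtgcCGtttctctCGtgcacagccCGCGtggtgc
Prdm16: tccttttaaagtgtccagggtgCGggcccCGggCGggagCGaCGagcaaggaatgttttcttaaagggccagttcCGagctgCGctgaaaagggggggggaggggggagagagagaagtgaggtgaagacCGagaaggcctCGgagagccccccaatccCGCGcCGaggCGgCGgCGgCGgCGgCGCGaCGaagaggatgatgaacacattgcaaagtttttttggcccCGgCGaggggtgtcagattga
Mrpl17: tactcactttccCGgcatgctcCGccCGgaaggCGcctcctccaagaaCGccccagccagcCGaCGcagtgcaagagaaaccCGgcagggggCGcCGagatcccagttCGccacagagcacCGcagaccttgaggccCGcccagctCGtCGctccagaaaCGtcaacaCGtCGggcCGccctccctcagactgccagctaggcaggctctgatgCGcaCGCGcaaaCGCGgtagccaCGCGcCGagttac
Rplp0: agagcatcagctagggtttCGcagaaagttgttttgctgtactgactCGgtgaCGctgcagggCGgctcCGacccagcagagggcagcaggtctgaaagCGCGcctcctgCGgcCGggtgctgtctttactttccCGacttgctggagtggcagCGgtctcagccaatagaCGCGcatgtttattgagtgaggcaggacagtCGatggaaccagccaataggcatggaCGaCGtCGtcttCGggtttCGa

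These printed runs held 36 CpGs in Barhl2, 34 in Adamts2, 22 in Prdm16, 20 in Tcf15, 18 in Slc6a17 and 17 in Fkbp6. The open genes Mrpl17 and Rplp0 held 27 and 19, within the range of the closed ones. Over the whole window the CpG ratio was 1.07 for Barhl2, 1.06 for Tcf15 and 0.984 for Prdm16, above the 0.873 of Mrpl17 and the 0.896 of Rplp0. It was 0.859 for Adamts2, 0.808 for Slc6a17 and 0.765 for Fkbp6, below both open genes. The strongest promoter peak of Mrpl17 stood at percentile 99.9 ± 0.104 (SD, n = 3) of its library's signals and that of Rplp0 at 99.8 ± 0.00539. The 6 member promoters had no peak at all.

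Replicate 1 had the fewest peaks and the most closed promoters. The larger lists held 40484 peaks in replicate 1, 84564 in replicate 2 and 81854 in replicate 3. Of the 9819 CpG-rich genes, 16.3% were closed in replicate 1, 9.93% in replicate 2 and 10.9% in replicate 3 (12.4 ± 3.40%, SD, n = 3). Closure in replicate 1 alone accounted for 463 genes, against 8 for replicate 2 alone and 18 for replicate 3 alone. Without replicate 1 the number of members was 879, and the 10 added genes were open in replicate 1 alone. Markers fixed for the labelled cell type were open at 6, 8 and 8 of 8 natural killer genes in replicates 1 to 3. Markers of other cell types also had promoter peaks: B cell markers were open at 3, 4 and 3 of 4 genes, T cell markers at 0, 2 and 1 of 4, with no promoter peak at Cd4 and Cd8a in any library, and myeloid markers at 1, 2 and 2 of 4. Endothelial markers were open at 1, 3 and 3 of 3 genes and erythroid markers at 0, 1 and 1 of 3. Whether such peaks came from other cells was not tested.

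Just above the CpG ratio threshold stood Neto1, Smo and Has2 (ratios of 0.6004, 0.6006 and 0.6007), and below it the closed genes Grik1 and Lrrc3b (0.5986 and 0.5985). The members with the nearest peak were Gm9958 at 504 bp, Sox21 at 505 bp and Grin2c at 512 bp. The genes that failed by the least were Gm26558, Igfbpl1 and Sstr4, whose nearest peaks lay 488, 483 and 477 bp from a start site.

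Developmental transcription factors were the largest named group of members. Of their 264 CpG-rich genes, 136 were closed in all 3 libraries, a share of 51.5% against 8.85% for all CpG-rich genes. By library the closed share was 74.2%, 55.7% and 58.7% (62.9 ± 9.96%, SD, n = 3). Only 67 were open in all 3 libraries and 61 were open in 1 or 2. None of the 136 had a promoter of copied sequence, defined below.

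**Figure D1:**
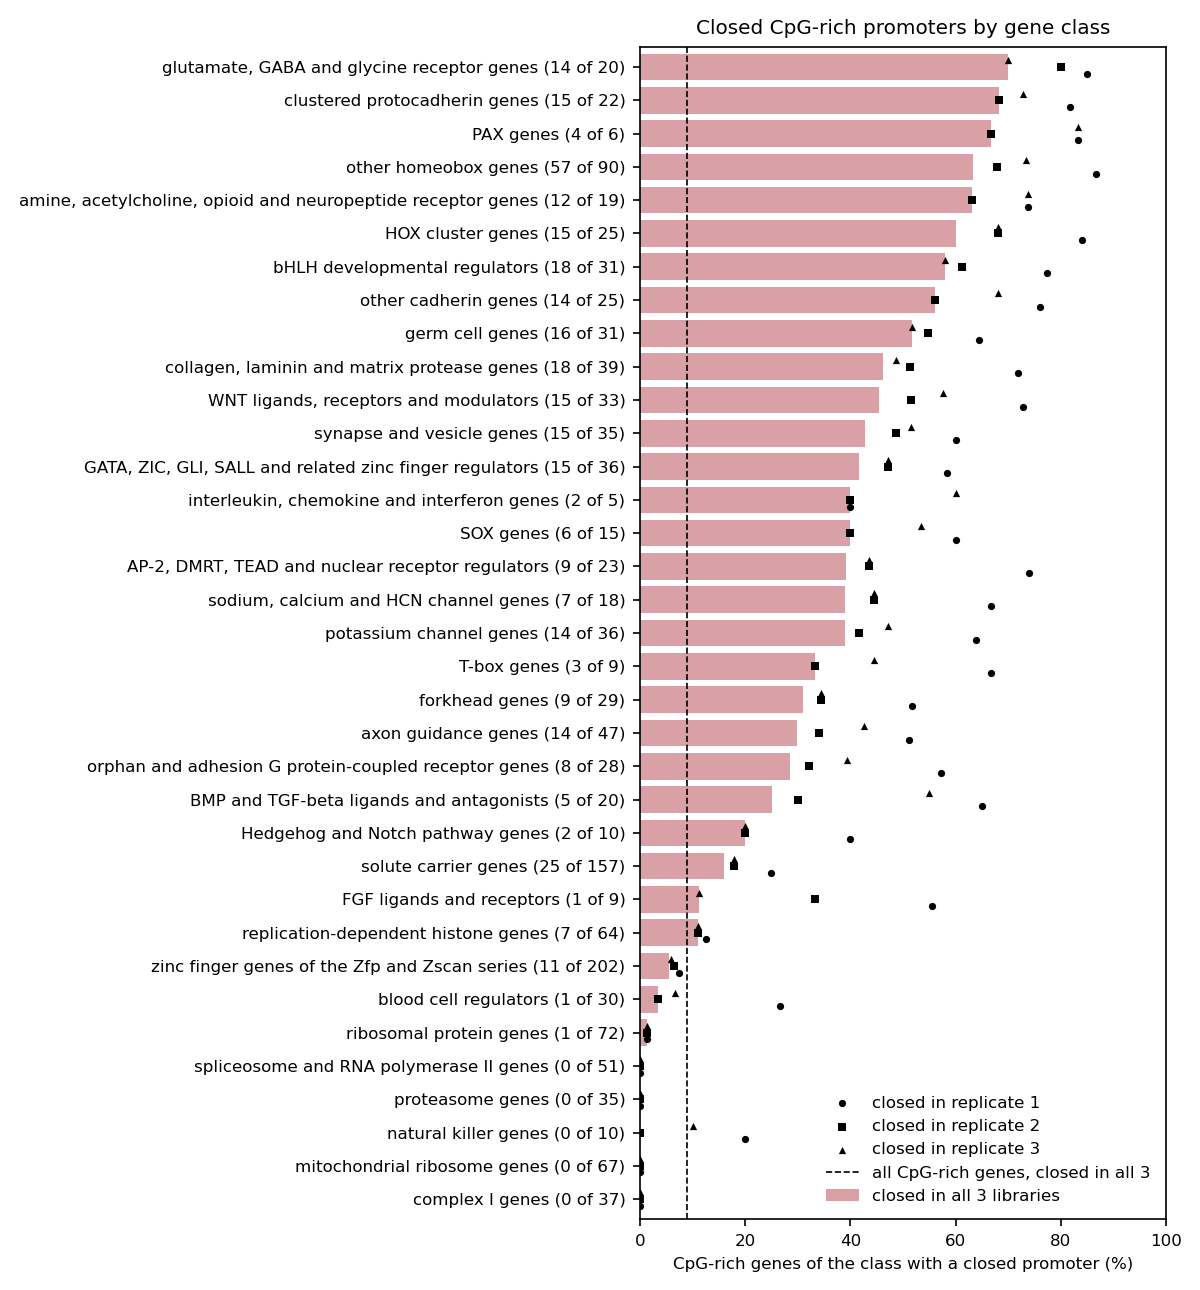
Share of the CpG-rich genes of each gene class whose promoter was closed in all 3 libraries (bars, with members of CpG-rich genes in brackets) and in each library (points). The dashed line is the share over all CpG-rich genes, 8.85%: receptor, protocadherin and homeobox classes lie far above it, and housekeeping classes lie at or near 0%.

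Homeobox genes outside the HOX clusters gave 57 members of 90 CpG-rich genes (63.3%). They included regulators of the brain and eye (Otx1, Otx2, Six3, Six6, Lhx2, Vax1), of gut and pancreas (Cdx1, Cdx2, Mnx1, Nkx2-2, Isl1) and of limbs and skeleton (Pitx1, Shox2, Msx2, Dlx5). En2, which patterns the midbrain and hindbrain, had a CpG ratio of 1.00 and a CpG-dense stretch of 2020 bp. Its nearest peak lay 42.3 kb away in replicate 1, 684 bp away in replicate 2 and 42.4 kb away in replicate 3, so a single library placed a peak close by. Six3 showed the same uneven pattern, with distances of 257 kb, 569 bp and 12.7 kb. For Barhl2 the nearest peak lay 116 kb away in replicate 1, 3.87 kb in replicate 2 and 3.86 kb in replicate 3.

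PAX genes, paired-box regulators of muscle, neural crest and skeleton, gave 4 members of 6: Pax1, Pax3, Pax7 and Pax9. None of the 4 had a peak within 10 kb in any library. The nearest peak to Pax3 was 291 kb away in replicate 1 and 218 kb away in replicates 2 and 3. For Pax7, the regulator of muscle stem cells, the distances were 25.2, 18.4 and 18.3 kb.

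The bHLH regulators, which include proneural and myogenic factors, gave 18 members of 31 (58.1%), among them Atoh1, Neurog1, Neurod1, Olig1, Twist1 and Ptf1a. Tcf15 had its nearest peak at 31.3 kb in each library. Neurod1, a factor of neuronal and endocrine differentiation, had one at 55.3 kb in replicate 1 and at 2.29 and 2.31 kb in replicates 2 and 3, and Npas2, a clock factor, at 26.1 kb, 595 bp and 595 bp. In both genes the near peak was missing from the library with the fewest peaks. SOX genes gave 6 members of 15 (Sox7, Sox9, Sox11, Sox14, Sox18 and Sox21). Sox9, needed for cartilage and testis, had its nearest peak 390, 51.4 and 279 kb away in replicates 1 to 3, and Sox11, a factor of neuronal progenitors, 873, 157 and 492 kb away. Sox18, a factor of blood and lymph vessels, had peaks at 7.24, 3.92 and 7.24 kb. Sox21 stood apart with 7 peak regions within 10 kb, of which none was found in all 3 libraries and none was found in replicate 2.

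Forkhead genes were less often closed throughout, with 9 members of 29 (31.0%), and T-box genes gave 3 of 9 (T, Tbx2 and Tbx20). The mesoderm factor T had its nearest peak at 26.3, 10.8 and 10.8 kb. Foxf1, a regulator of mesenchyme, had its nearest peak at 8.4 kb in all 3 libraries, whereas the nearest to Foxf2 lay 175 kb, 3.67 kb and 525 bp away. Foxd3, a neural crest factor, had peaks 882, 762 and 842 bp from its start site. The GATA, ZIC, GLI, SALL and related zinc finger regulators gave 15 of 36 (41.7%). Among them Gli3, a transcriptional effector of Hedgehog signalling, had a CpG-dense stretch of 2020 bp and its nearest peak 548 kb away in replicate 1 and 295 kb away in replicates 2 and 3. Insm1, a neuroendocrine factor with a stretch of 2660 bp, had a peak 521 bp away in replicate 2, 6.9 kb away in replicate 3 and 43.3 kb away in replicate 1. The AP-2, DMRT, TEAD and nuclear receptor regulators gave 9 of 23. In that class Grhl2, a regulator of epithelia, had its nearest peak at 11.0 kb, 789 bp and 815 bp.

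The HOX clusters, which pattern the body axis and are partly expressed in blood progenitors, were split. Of 39 HOX genes 25 were CpG-rich: 15 were members, 4 were open in all 3 libraries and 6 were open in 1 or 2. The Hoxa cluster held the most open promoters, among them Hoxa4 and Hoxa7, and its members were Hoxa2, Hoxa5, Hoxa6, Hoxa11 and Hoxa13. In the Hoxb cluster Hoxb5 was open and Hoxb7 and Hoxb8 were closed. No CpG-rich Hoxc or Hoxd gene was open in all 3 libraries. The Hoxc members were Hoxc8, Hoxc11 and Hoxc12, and the Hoxd members Hoxd3, Hoxd4, Hoxd8, Hoxd10 and Hoxd13.

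Peaks were nevertheless common between closed HOX promoters. A peak within 10 kb was found for 73.3%, 86.7% and 80.0% of the 15 HOX members in replicates 1 to 3 (80.0 ± 6.67%, SD, n = 3), and 13 of the 15 had one in some library. Over all members the share was 38.1 ± 10.5%. Neighbouring HOX genes share these regions, and 8 of the 37 pairs of a member and a region lay at the promoter of another protein-coding gene. Upstream of Hoxc8 a region at chr15:102987521-102987700 was found in all 3 libraries at percentiles 80.9, 88.4 and 88.0. Upstream of Hoxb8 a region at chr11:96278861-96279060 stood at 72.6, 88.6 and 87.6. Beyond the end of Hoxa13 a region at chr6:52257041-52257220 stood at 66.1, 87.6 and 83.7, and Hoxd3 had 7 regions, 3 of them in all libraries. These are ranks among the peaks of a library, where 100 is the highest signal.

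Signalling genes were closed at an intermediate rate, with 37 members of 119 CpG-rich genes (31.1%). By library 58.8%, 37.0% and 44.5% were closed (46.8 ± 11.1%, SD, n = 3). WNT ligands, receptors and modulators gave 15 of 33 (45.5%): the ligands Wnt2, Wnt2b, Wnt3a, Wnt4, Wnt5a and Wnt9b, the receptors Fzd1, Fzd10 and Ror2, the R-spondins Rspo1, Rspo2 and Rspo3, and the secreted antagonists Frzb, Sfrp1 and Sfrp5. Sfrp1 had a CpG ratio of 1.04 and its nearest peak 154 kb away in each library. Fzd1 had a CpG-dense stretch of 2100 bp and its nearest peak 622, 154 and 154 kb away. Of the R-spondins, which amplify WNT signals, Rspo1 had a peak within 10 kb in replicate 3 alone, at 2.38 kb, and Rspo3 in replicate 2 alone, at 2.84 kb.

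BMP and TGF-beta ligands and antagonists gave 5 members of 20 (Bmp6, Bmp8b, Gdf6, Gdf10 and Grem1), FGF genes 1 of 9 (Fgf2) and listed Hedgehog and Notch genes 2 of 10 (Ihh and Notch3). That last list did not hold every pathway gene: the Hedgehog gene Smo, a member named above, was not on it. Bmp6, a ligand that controls iron balance, had its nearest peak at 107 kb in replicate 1 and at 2.25 kb in replicates 2 and 3. Axon guidance genes gave 14 of 47 (29.8%), from the ephrin receptor, plexin, semaphorin, slit and netrin receptor families. The netrin receptor gene Unc5d had its nearest peak 573 kb away in replicate 2 and 744 kb away in replicate 3, and none within the 1000 kb searched in replicate 1. Sema6b lay at the other extreme, with 8 regions within 10 kb and the nearest peak at 698, 843 and 823 bp.

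Neuronal genes were closed as often as the developmental factors, with 91 members of 175 CpG-rich genes (52.0%) and closed shares of 70.9%, 55.4% and 59.4% by library (61.9 ± 8.01%, SD, n = 3). Receptors of the transmitters glutamate, GABA and glycine had the highest share of all classes, 14 of 20 (70%). Clustered protocadherins, which give neurons their surface identity, gave 15 of 22 (68.2%), receptors of amines, acetylcholine, opioids and neuropeptides 12 of 19 (63.2%) and other cadherins 14 of 25 (56.0%). Synapse and vesicle genes gave 15 of 35, potassium channels 14 of 36, and sodium, calcium and HCN channels 7 of 18. With about 20 genes in each of the first 3, a single gene would change their order.

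Within these classes the surroundings varied from empty to densely marked. Grik3, a kainate receptor subunit, had a CpG ratio of 0.929 and its nearest peak 125, 47.7 and 47.7 kb away. Gabbr2, a subunit of the GABA-B receptor, had a like ratio of 0.922 and a peak 1.05, 1.03 and 1.03 kb away in replicates 1 to 3. Cacna1i, a T-type calcium channel, had a peak at 1.99 kb in every library, at percentiles 64.7, 89.5 and 83.4. Kcnk12, a potassium leak channel, had one at 532 bp in replicate 2 only, with 125 kb and 46.1 kb to the nearest in the others. Dchs1, a large cadherin of planar polarity, had its nearest peak at 5.51, 5.55 and 5.55 kb, at percentiles 92.2, 96.2 and 96.5, and that peak lay at another gene's promoter. The delta opioid receptor gene Oprd1 had a peak at 761 bp in replicate 3, and at 34.2 and 13.8 kb in replicates 1 and 2.

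Germ cell genes gave 16 members of 31 CpG-rich genes (51.6%), with 64.5%, 54.8% and 51.6% closed by library. They comprised genes of the synaptonemal complex and meiotic chromosomes (Sycp1, Sycp3, Tex12, Hormad1, Smc1b, Msh4) and of the piRNA pathway (Ddx4, Mael, Mov10l1, Tdrd1, Tdrd6, Asz1), together with Fkbp6, Stk31, Slc25a31 and Rpl10l. Fkbp6 had its nearest peak at 7.6 kb, 7.64 kb and 7.64 kb. Msh4, a factor of meiotic recombination, had peaks at 970 and 980 bp in replicates 2 and 3 and at 6.8 kb in replicate 1. The median GC content of their promoters was 56.8%, against 62.5% over all members and 61.7% in the 11 germ cell genes open in all 3 libraries.

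Collagen, laminin and matrix protease genes gave 18 members of 39 (46.2%), including Col4a2, Col5a1, Lama1, Lama5, Fbn2 and several secreted proteases of the ADAMTS family. By library 71.8%, 51.3% and 48.7% were closed. Adamts1 had its nearest peak 626 kb, 601 bp and 626 kb away, so only replicate 2 placed one nearby. Solute carriers gave 25 of 157 (15.9%) and orphan and adhesion G protein-coupled receptors 8 of 28 (28.6%). Slc5a5, the iodide transporter of the thyroid, had 7 regions within 10 kb and its nearest peak at 904 bp in each library.

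Genes of general cell function were nearly absent from the members. Of 262 CpG-rich housekeeping genes (ribosome, mitochondrial ribosome, proteasome, respiratory complex I, spliceosome and RNA polymerase II), 261 were open in all 3 libraries and 1 was closed (0.382%). The closed one was Rpl10l, the testis copy of a ribosomal protein gene, which is also on the germ cell list. Of 10 CpG-rich natural killer genes 8 were open in all 3 libraries and 2 were open in some, so none was a member. Among 30 CpG-rich blood cell regulators the single member was Id4, an inhibitor of bHLH factors. Id4 had a CpG ratio of 1.01 and its nearest peak 203 kb away in every library. The interleukin, chemokine and interferon list gave 2 members of 5, the stromal chemokines Cxcl12 and Cxcl14.

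A small set of members had promoters made largely of short words that occur elsewhere in the genome. Fewer than 50% of the 36-base words of the promoter window were unique in the reference for 54 members (6.21%), against 0.672% of the open CpG-rich genes, and 32 of the 54 had no unique word at all. They included 36 genes with Gm, Rik or clone symbols and 5 of the 7 histone members (Hist1h2ao, Hist1h2ap, Hist1h2bq, Hist1h2br and Hist2h3c1). Chromosome 14 held 22 of the 54, among them Entpd4, Slc25a37 and Loxl2, with Slc25a37 being the mitochondrial iron importer of erythroid cells. Whether reads could be placed at these promoters was not tested. Leaving such genes out of both counts gave 815 members, 8.4% of the remaining CpG-rich genes, and the same 136 developmental factors.

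No class was assigned to 518 members, 6.13% of the 8444 CpG-rich genes outside the lists. The commonest symbol stems among them, counted after the values were seen, were Gm (53 of 191 CpG-rich genes, 27.7%), Tmem (14 of 128, 10.9%) and Fam (12 of 102, 11.8%). The share over all CpG-rich genes was 8.85%. Among the stems with 4 members each were Prr (4 of 9, 44.4%), St (4 of 16, 25%) and Ccdc (4 of 71, 5.63%). Genes with Gm, Rik or clone symbols, a grouping also made after the values were seen, gave 74 of 404 (18.3%), and 10.9% with copied promoters left out. The zinc finger genes of the Zfp and Zscan series lay below the background, with 11 of 202 (5.45%).

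Member promoters were CpG-rich to a slightly lower degree than open ones. The median CpG ratio was 0.728 in members and 0.792 in open genes, and 30% of members against 47.4% of open genes had a ratio above 0.8. The median GC content was 62.5% in members and 60.8% in open genes. The CpG-dense stretch around the 5' end (200 bp windows with GC above 50% and a ratio above 0.6) had a median length of 740 bp in members and 820 bp in open genes.

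**Figure D2:**
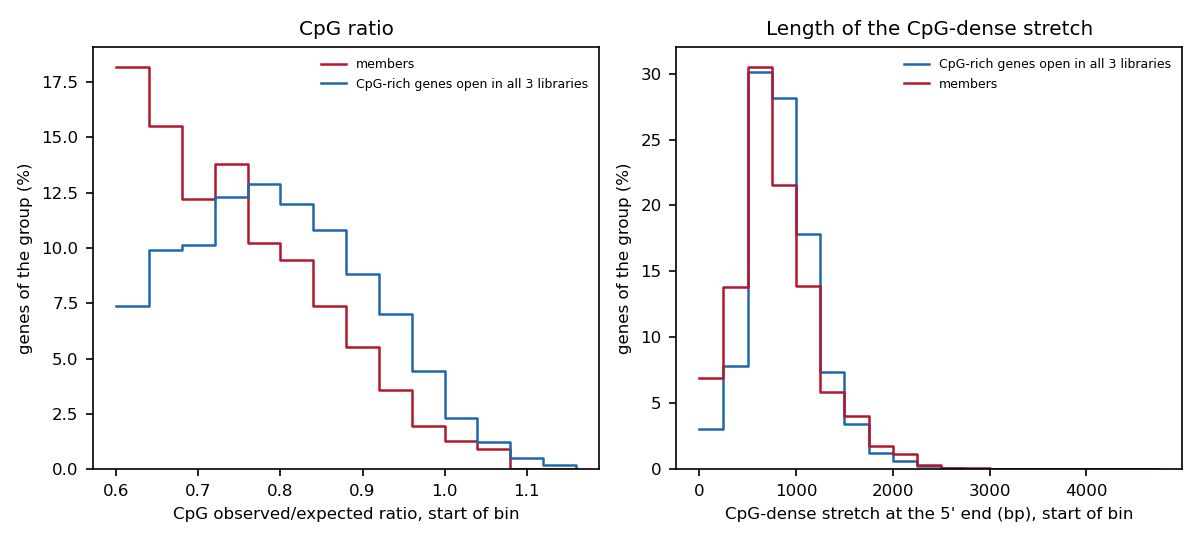
Distribution of the CpG ratio of the promoter window (left, in bins from the threshold of 0.6) and of the length of the CpG-dense stretch at the 5' end in bp (right), as percent of the 869 members and of the 8187 open CpG-rich genes. The members are shifted to lower ratios, with medians of 0.728 and 0.792, and the 2 groups overlap over nearly the whole range.

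The closed developmental factors had more CpGs in the wider surroundings of the promoter. Within 3000 bp each side of the 5' end they had a median of 37.2 CpGs per kb, against 27.8 for all members and 24.3 for open genes. The 67 developmental factors open in all 3 libraries had 35.0, close to the closed ones. A CpG-dense stretch longer than 2000 bp was found in 9 of 136 closed developmental factors (6.62%) and in 1 of the 67 open ones (1.49%). It was found in 1.73% of all members and in 0.904% of all open genes. The median length went the other way, at 780 bp in the closed developmental factors and 960 bp in the open ones. Their promoter windows held medians of 67.9 and 82.9 CpGs per kb. The longest stretch among the 869 members was that of Prdm16, at 2920 bp. Members had fewer annotated start sites, with a median of 2 against 5 in open genes, and 31.2% of members had a single one against 9.58%. The closed call needs every annotated start site to lack a peak, so the number of start sites enters it.

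Short sequence words bound by general activators were rarer in the promoters of the 869 members than in open ones. Within developmental factors this did not hold for the NF-Y and NRF1 words, as given below. The windows were searched on both strands for the words of ETS factors (CCGGAAG), NRF1 (GCATGCGC), CRE-binding factors (TGACGTCA), YY1 (AGATGGCG), NF-Y (CCAATCA), SP and KLF factors (GGGCGG), E2F (TTCCCGC), MYC and USF E-boxes (CACGTG), RUNX (TGTGGTT), T-box factors (AGGTGTGA), homeodomains (TAATTA) and GATA factors (AGATAA), and for the longer CTCF and REST motifs. TATAAA was searched only in the 60 bases before the 5' end, on the gene's strand. None of these words contains another. The ETS word was present in 102 of 869 members (11.7%) and in 35.6% of open promoters, with 31.4% over all CpG-rich promoters of this length. The YY1 word was present in 2.53% of members and 9.92% of open promoters (8.81% over all), the CRE in 1.84% and 5.77% (5.23% over all) and the NRF1 word in 5.06% and 9.72% (8.82% over all).

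**Figure D3:**
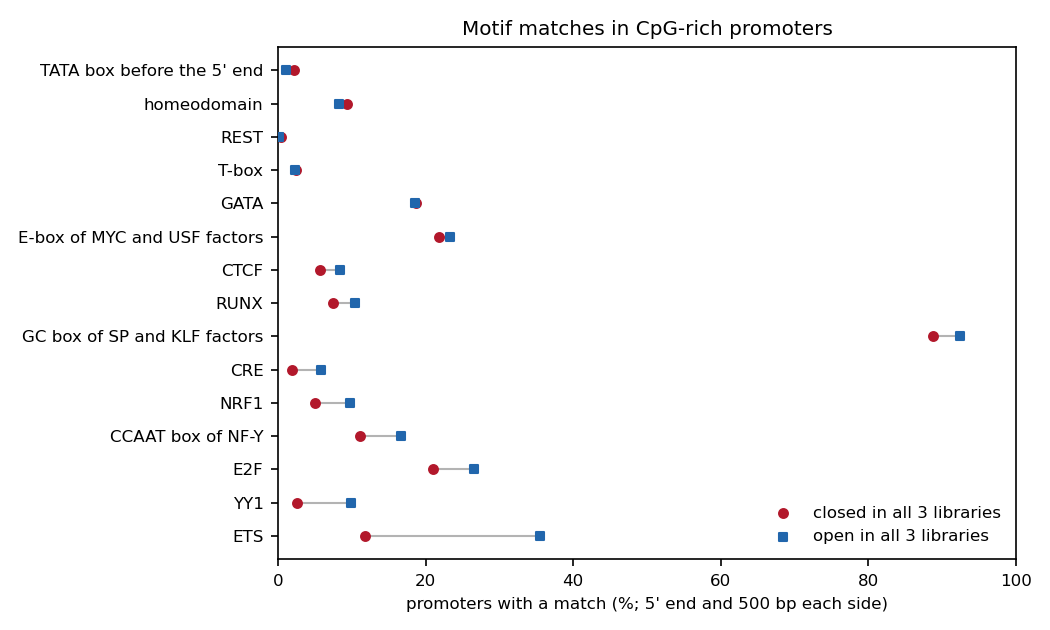
Percent of promoter windows with at least 1 match to each sequence word, for the 869 members (circles) and the 8187 open CpG-rich genes (squares). The widest gap is that of ETS, 11.7% against 35.6%, while GATA, T-box and E-box words were about as frequent in both groups.

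The ETS difference was found at lower and higher CpG ratios alike. Among promoters with a ratio of 0.6 to 0.8 the word was present in 13.0% of members and 34.5% of open genes, and above 0.8 in 8.81% and 36.7%. At developmental factors it was present in 8.82% of members and 25.4% of open genes. The NF-Y word (22.1% and 14.9%) and the NRF1 word (6.62% and 2.99%) went the other way there. By single class, with few open genes in each, the ETS word went both ways. It was present in 4 of 15 HOX members and 0 of 4 open HOX genes, and in WNT genes in 2 of 15 and 0 of 9. Among bHLH regulators it was present in 2 of 18 and 3 of 7, and among the zinc finger regulators in 1 of 15 and 6 of 15. None of the ETS, NRF1, CRE, YY1 and NF-Y words was present in 71.2% of members and 41.0% of open promoters. The GGGCGG box was nearly universal in both, at 88.7% and 92.4% (92.1% over all). E2F words stood at 20.9% and 26.5% (25.9% over all), RUNX at 7.48% and 10.5% (10.1%), CTCF at 5.64% and 8.45% (8.12%) and the NF-Y word at 11.2% and 16.6% (15.7%). T-box words stood at 2.42% and 2.32% (2.37% over all), homeodomain words at 9.32% and 8.32% (8.36%), GATA words at 18.6% in both (18.4%), TATAAA at 2.19% and 1.07% (1.2%) and the REST motif at 0.46% and 0.11% (0.143%). Of the printed runs, that of Mrpl17 held an ETS word, and neither that of the open gene Rplp0 nor any of the 6 member runs did. The NF-Y word was present in the Tcf15 run and the NRF1 word in the Fkbp6 run, and neither word in an open run.

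The E-box had a different distribution among classes. Over all members it was present in 21.9%, close to the 23.3% of open promoters and the 22.7% of all CpG-rich ones. Among germ cell members it was present in 14 of 16 (87.5%), against 5 of 11 germ cell genes that were open. The printed run of Fkbp6 held 2 of these words. Clustered protocadherin members carried it in 11 of 15, and how alike these promoters are in sequence was not measured. The breakdown by class was made after the overall values were seen, for the ETS, E-box, E2F and NF-Y words. A match is a run of letters and not a site of measured binding.

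A peak within 10 kb of a start site was found for 50.2% of members in at least 1 library. The share was 25.9% in replicate 1, 44.8% in replicate 2 and 43.5% in replicate 3 (38.1 ± 10.5%, SD, n = 3). Over the libraries together 436 members had such a peak, 215 had one in each library, and 433 had none. Open CpG-rich genes had a further peak beyond 500 bp in 74.2 ± 12.6% and closed CpG-poor genes in 28.9 ± 7.08%. The share of members was therefore above that of closed CpG-poor genes in each library, by 5.18, 11.2 and 11.1 percentage points (9.18 ± 3.47). An exact sign-flip permutation test over the 3 libraries gave p = 0.25 (two-sided), the smallest p that 3 libraries allow. Any 3 differences of the same sign give this p whatever their size, so it decides nothing. Both gene sets were chosen by the absence of peaks in these same lists, so the excess is a description. Measured from the 5' end alone, the shares were 29.3 ± 8.49% and 25.8 ± 6.55%. When the closed call itself also used only the 5' end, the excess was 0.533 percentage points.

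**Figure D4:**
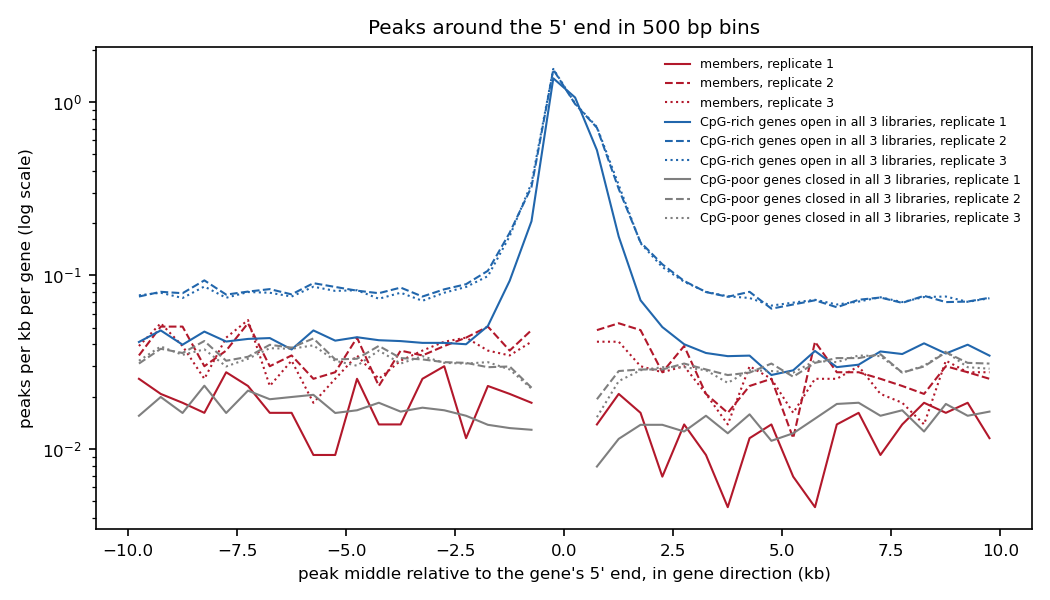
Peak middles per kb per gene (log scale) in 500 bp bins around the annotated 5' end, in gene direction, for members, open CpG-rich genes and closed CpG-poor genes, with 1 line per library. The gap in the lines of both closed groups at the centre comes from the rule that chose them. Directly beyond it members lie above closed CpG-poor genes (3.53 against 1.67 per kb per 100 genes at 0.5 to 1 kb), and from 2 kb on both run at a similar level.

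Counted per length of DNA, the surroundings of members and of closed CpG-poor genes held similar numbers of peaks. Around any start site members had 1.31, 2.9 and 2.72 peaks per 100 kb of the searched sequence in replicates 1 to 3 (2.31 ± 0.871), closed CpG-poor genes 2.64 ± 0.914 and open CpG-rich genes 6.44 ± 2.29. Measured from the 5' end alone, members had 1.62, 3.43 and 3.14 peaks per 100 kb (2.73 ± 0.976) and closed CpG-poor genes 1.61, 3.23 and 3.14 (2.66 ± 0.911). Close to the 5' end the difference was larger. From 0.5 to 1 kb members had 3.53 ± 1.70 peaks per kb per 100 genes and closed CpG-poor genes 1.67 ± 0.555. Each library had more there in members: 1.61 against 1.04 in replicate 1, 4.83 against 2.09 in replicate 2 and 4.14 against 1.87 in replicate 3. From 2 to 5 kb the values were 2.54 ± 0.904 and 2.55 ± 0.899.

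**Figure D5:**
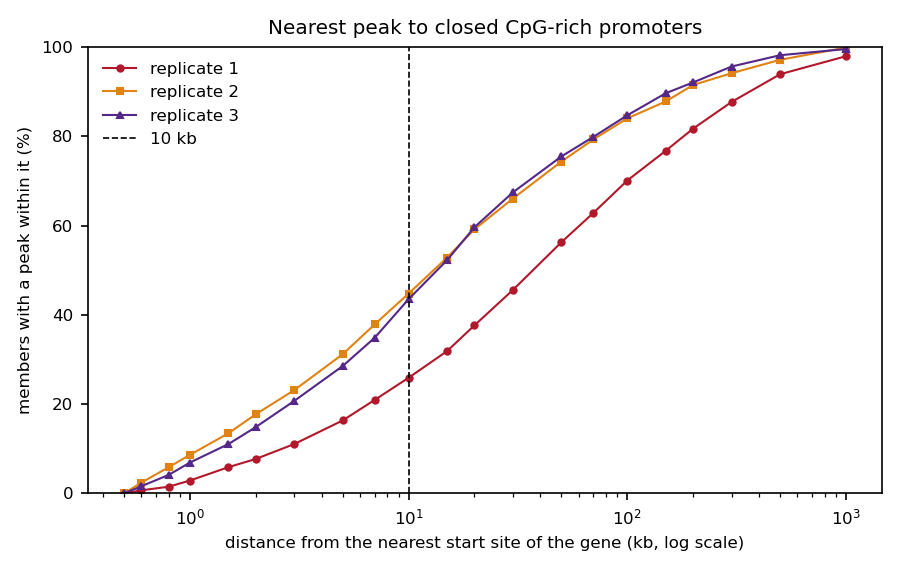
Cumulative percent of the 869 members with a peak within a given distance of a start site (kb, log scale), 1 line per library. The lines of replicates 2 and 3 run together and reach 44.8% and 43.5% at 10 kb, and that of replicate 1 reaches 25.9%.

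The nearest peak lay at a median distance of 37.2 kb in replicate 1, 12.8 kb in replicate 2 and 13.3 kb in replicate 3. In replicate 1, 260 members had none within 100 kb, against 139 and 133 in replicates 2 and 3, and 96 members had no peak within 100 kb in any library. The share of members with a peak within 10 kb was 42.2 ± 12.3% among developmental factors and 26.4 ± 5.81% among neuronal genes. A peak within 10 kb in at least 1 library was found for 436 of the 869 members (50.2%). By class it was found for 34 of 57 other homeobox, 8 of 9 forkhead, 12 of 18 matrix and 5 of 18 bHLH members. It was found for 3 of 14 members among other cadherins and 2 of 15 clustered protocadherins. Among forkhead members the share was 22.2% in replicate 1 and 77.8% in replicates 2 and 3, and 2 of the 9 had a region found in all 3 libraries.

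Merging the peaks of the libraries gave 923 distinct regions within 10 kb of members, in 968 pairs of a member and a region. Of the pairs 337 were found in all 3 libraries, 302 in 2 and 329 in 1. The promoter of another protein-coding gene held 139 of the pairs (14.4%), and 468 (48.3%) lay inside the member's own gene body. The median percentiles of their signals were 46.1, 48.5 and 47.9 in replicates 1 to 3, close to the middle of each list. Pairs found in all 3 libraries had a median percentile of 77.4 at other genes' promoters (85 pairs) and 62.5 elsewhere (252 pairs).

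The strongest such regions were close to the top of the peak lists. The first lay 5.86 kb from Tmem151b at another gene's promoter (chr17:45555541-45555740), at percentiles 99.5, 99.7 and 99.9. The next lay 9.16 kb upstream of Trpv4, a cation channel gene (chr5:114667581-114667780), at 99.5, 99.7 and 99.5. It was not at the promoter of another protein-coding gene. Regions near Grin2c and Slc18b1 followed, both at other genes' promoters, at mean percentiles of 99.5 in both. The fifth, shared by Gm17535 and Gm10720 on chromosome 9, lies among genes with copied promoter sequence. The members with the most regions were 1700067K01Rik with 11, Tmem151b with 10, Zfp541 with 9, Ap1m2 and Sema6b with 8 each, and Gm10720, Hoxd3, Lgr6, Nmnat2, Slc5a5 and Sox21 with 7 each.

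Evidence of DNase cutting inside the closed promoters was scarce in the authors' other files, which come from the same reads as the peaks. An interval with a cut rate q-value under 0.05 within 500 bp of a start site was found for 2.53%, 7.02% and 4.26% of members in replicates 1 to 3 (4.60 ± 2.26%, SD, n = 3). The share was 100% of open CpG-rich genes in each library and 1.02 ± 0.441% of closed CpG-poor genes. It was above that of closed CpG-poor genes in each of the 3 libraries, where they had 0.556%, 1.43% and 1.07%. Altogether 769 members (88.5%) had no such interval in any library, 85 had one in 1 library and 5 had one in all 3. With a q-value limit of 0.01 the share of members was 0.690 ± 0.115%.

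The 5 members with intervals in every library were B430218F22Rik, Gja5, Glis2, Gm9958 and Gpr135, and each had a peak that began just outside the 500 bp limit. Gm9958 had peaks at 504, 524 and 504 bp, at percentiles 84.2, 92.3 and 90.1, and a footprint in all 3 libraries. Gja5, a connexin of artery and conduction tissue, had peaks at 528, 548 and 548 bp at percentiles 92.2, 96.6 and 96.7, and footprints in replicates 1 and 3. Gpr135, an orphan receptor, had peaks at 525, 545 and 545 bp and Glis2, a zinc finger factor of the kidney, at 527 bp in each library. A footprint was found in 3, 1 and 3 members in replicates 1 to 3, and 865 members had none.

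Members were more often next to another member than open genes were. Of the members 203 (23.4%) had another member as the neighbouring protein-coding gene, against 7.61% of open CpG-rich genes that neighboured a member. Runs of 3 or more members numbered 11 and held 39 genes. The longest, of 7 genes over 37.4 kb on chromosome 18, was made of Pcdha1 to Pcdha6 and Gm42416. Others were Hoxd8, Hoxd3 and Hoxd4 on chromosome 2, Irx1, Irx2 and Irx4 over 1297 kb on chromosome 13, Wnt2, Asz1, Cftr and Cttnbp2 over 484 kb on chromosome 6, and Map3k21, Kcnk1 and Slc35f3 over 388 kb on chromosome 8. In 3 of the 11 runs all 3 genes had copied promoter sequence. A start site of another protein-coding gene lay within 500 bp of the 5' end in 4.83% of members and 24.2% of open genes. The rule itself leaves out most genes that share a start with an open neighbour, so this difference is a description.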

How the data were processed

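Each library had 2 peak lists, a footprint list and a cut rate list, all on mm10 per the labels. Aligner and peak caller: not given in the sources used here. The deposited peak signal is on a scale the authors' files do not state, so peaks were compared only by percentile within a library. The deposited footprint score is constant and was not used. The authors' cut rate list gives q-values, all under 0.05. Genes and start sites came from GENCODE M21, sequences from GRCm38, whose chromosome ends hold every peak. Member genes, lists and tests were chosen with earlier results of these data known. Named genes were, per class of at least 3 members, the 2 with the highest CpG ratio and the 2 with the nearest peak; the 10 with most regions and 5 with the strongest; genes at the thresholds; and blood regulators. Other names came after the values were seen. The histone list was corrected after the files were read, since it also took histocompatibility genes. Overlap, distance and CpG functions were tested on simulated intervals and sequence. Python 3.11.15, numpy 2.4.6, pandas 2.3.3 and numba 0.67.0 were used. Alternatives changed the peak list, window, threshold, start sites and libraries. A few single-gene values are not reported here.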

Additional observations from a re-analysis of the deposited data

How the results depend on the processing

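Of 74 alternative values, 59 stayed within a set tolerance and 15 moved beyond it. For the number of members the tolerance was 1.5 times the count. For the share with copied sequence and the ETS difference it was the margin of an exact binomial interval over the members. That margin treats promoters as independent and does not measure the spread between libraries. For the other results it was the SD between libraries. Only the excess over closed CpG-poor genes and the ETS difference could change sign, and neither did. Members numbered 1677 (17.1% of CpG-rich genes) when only the 50% of peaks with the higher signal counted. With a CpG ratio threshold of 0.75 they numbered 369, which is 6.23% of the 5924 genes above that threshold. The closed share of developmental factors was 73.5% with the higher-signal peaks and 65.5% with the stricter peak list. Over all CpG-rich genes it was 17.1% with the higher-signal peaks and 12.3% with the stricter list. The share of members with a peak within 10 kb was 25.8% with the higher-signal peaks, 25.4% within 5 kb and 56.1% within 25 kb. The excess over closed CpG-poor genes was 5.30 percentage points with the higher-signal peaks, 13.0 with a half-width of 250 bp, 5.23 with start sites of protein-coding transcripts only and 0.533 with the 5' end only. The share with a cut rate interval was 0.690% at a q-value limit of 0.01. The share of members with copied sequence was 10.1% with a limit of 90% unique words. The ETS difference of -23.8 percentage points was -21.5 at ratios of 0.6 to 0.8 and -27.9 above 0.8. Leaving out 1 library at a time gave 879 to 1045 members, 8.95% to 10.6% of the CpG-rich genes. Of the developmental factors 51.5% to 58.7% were closed. The share of members with a peak within 10 kb was 36.7% to 44.3% and the excess 8.87 to 11.3 percentage points. No paired analysis was possible because there is a single group, so no replicate number pairs samples of different groups. The sign-flip test compared gene sets within each library. Depth is unknown, so a promoter called closed may hold cuts that a deeper library would show.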
